A study of Cervus nippon with 12 samples.

Results

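The miRNAs of reserve mesenchyme cells (RMCs) of the sika deer antler were compared between day 14 and day 0 of chondrogenic induction. The 3 libraries of CP_14 and the 3 of CP_0 were used, which are 6 of the 12 small RNA libraries of the study, and all 545 listed miRNAs were included. RMCs are the stem cells of the growing antler tip, from which its cartilage forms, and all 6 libraries carry the genotype label WT. CP_0 was labelled as RMCs induced for 0 days and CP_14 as RMCs induced for 14 days. The RMCs were grown in DMEM with fetal bovine serum before induction, which was done with chondrogenic medium in tubes. The methods describe 3-year-old male deer as the source, but the labels do not say which animal or culture gave which library, so the p-values below measure only the spread between these libraries. The comparison asks which miRNAs stood at a new level at the end of the induction, whatever their course in between.

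A miRNA is a short RNA that pairs with messenger RNAs and lowers their translation or stability, and each precursor hairpin can give a mature strand from either of its arms, named 5p and 3p. In chondrogenesis, mesenchymal cells switch on the transcription factor SOX9 and lay down a matrix of type II collagen and proteoglycans. MiR-140, which lies in an intron of WWP2, is the miRNA best known for cartilage, while miR-145 can target SOX9, and the miR-29 family targets collagen transcripts.

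The 6 libraries held 2791559 to 4097304 reads on listed miRNAs, and these ranges overlapped between both groups. The deposited values are RPM values, each a number of reads out of 1000000 reads on listed miRNAs, from which the whole reads were recovered. They were scaled with TMM, a composition factor computed from the bulk of the miRNAs, which was 0.993, 0.906 and 0.940 in replicates 1 to 3 of CP_0 and 1.09, 1.09 and 0.995 in those of CP_14. With 0 reads a miRNA may still be present at up to 0.732 to 1.07 RPM (3 reads, counting error only). Of the CP_14 libraries, replicates 1 and 2 were the most alike of the pairs within a group, with a chi-square statistic of 4.92 per degree of freedom, against 252 and 213 for each of them with replicate 3. One library of CP_0, replicate 3, carried 8 miRNAs at least 4-fold above both other CP_0 libraries, and they are described below. The mesenchymal miR-199, miR-214 and miR-3120 together held 12606 to 25242 RPM, so the miRNAs usual in mesenchyme were present, and the 9 epithelial miRNAs held 34.9 to 93.1 RPM. The mesenchymal sum is too high, since it counts the reads of miR-199a-3p again under the name miR-3604.

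After the low counts had been filtered out, 250 of the 545 miRNAs were tested, 242 with a cattle name and 8 named novel_. Of these, 115 were differentially expressed (46% of those tested), with 62 higher in CP_14 (24.8%) and 53 lower (21.2%). Counts of calls in the families and lists below are to be read beside these shares. A miRNA was called at a Benjamini-Hochberg adjusted p under 0.05 in limma's moderated test on log2(TMM-normalized RPM + 1), a scale on which changes of rare miRNAs come out too small. The median log2 fold change of all 250 was 0.01. For 141 of the 250 (56.4%) the libraries of CP_14 all lay above or all below those of CP_0, and these included all 115 calls. At least 2-fold changes made up 48 of the calls (19.2% of those tested), 33 higher and 15 lower, and 67 calls were under 2-fold. On the log2(TMM-normalized RPM + 1) scale, 11 of the calls were at least 4-fold higher in CP_14 and 0 at least 4-fold lower. The split between directions moved with the scaling, to 50 higher and 91 lower with upper-quartile factors, where the median of all miRNAs was -0.24, and to 76 and 33 with library size only, where it was 0.16. Without CP_14 replicate 3 there were 138 calls and without CP_0 replicate 3 there were 128. With each of the 6 libraries left out in turn, 83 of the 115 calls were kept. In bulk RNA, fewer cells of a type and less of a miRNA per cell cannot be told apart.

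**Figure D1:**
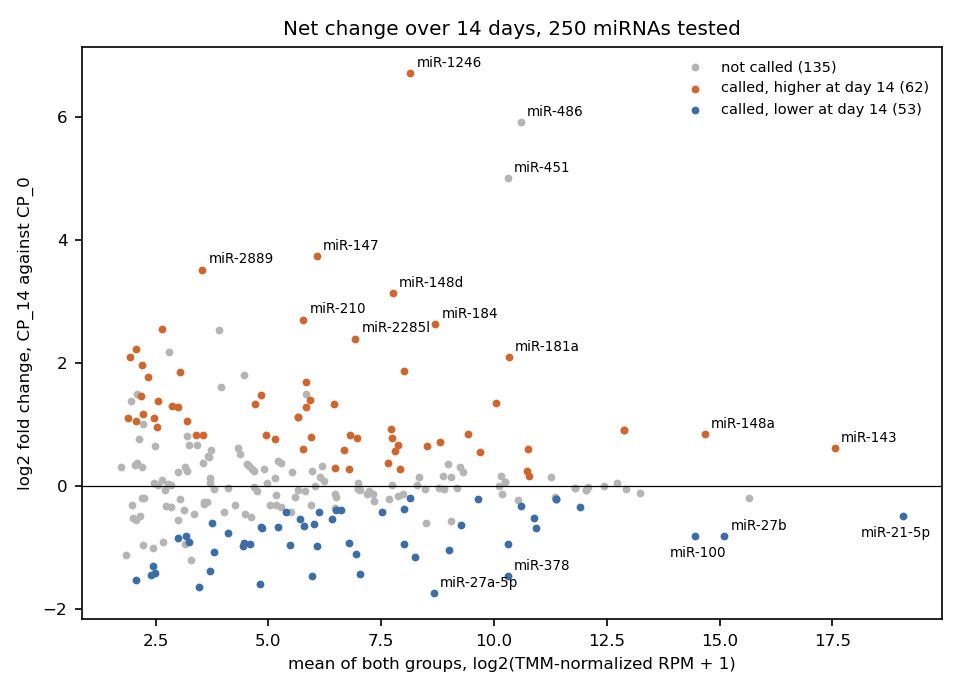
Log2 fold change of CP_14 against CP_0 (y axis) over the mean level of both groups as log2(TMM-normalized RPM + 1) (x axis), with 1 point per miRNA for the 250 tested. Orange marks the 62 miRNAs called higher, blue the 53 called lower and grey the 135 not called, and the largest changes lie above 0, while miR-486 and miR-451 stand high among the uncalled.

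The most abundant miRNAs shifted in their shares of the library. Of the 545 miRNAs 5, miR-21-5p, miR-143, let-7i, miR-27b and miR-148a, held 83.9% to 86.6% of the reads in every library. MiR-21-5p, known from growing and injured tissue, held 59.8%, 61.7% and 59.5% of the reads in CP_0 and 45.0%, 45.7% and 53.9% in CP_14. Every CP_14 library lay below every CP_0 library, with replicate 3 nearest to them. After scaling, miR-21-5p fell by 1.40-fold (log2 fold change -0.49, SE 0.11, limma adjusted p = 0.0108) and was no longer called without CP_0 replicate 2 (-0.44). Its rare other arm, miR-21-3p, stood at 22.3, 18.1 and 20.2 in CP_0 and 21.1, 13.3 and 14.6 in CP_14 (TMM-normalized RPM, the unit of all values per library below, given in the order of replicates 1 to 3) and was not called (log2 fold change -0.31, limma adjusted p = 0.233) except with upper-quartile factors (-0.55, limma adjusted p = 0.0318). MiR-143, a miRNA of smooth muscle and mesenchyme that is transcribed together with miR-145, held 13.2%, 14.0% and 15.8% of the reads in CP_0 and 27.5%, 26.7% and 20.3% in CP_14. It rose by 1.54-fold (log2 fold change 0.62, SE 0.12, limma adjusted p = 0.00444), and its groups did not overlap. MiR-27b, known as a brake on adipogenesis, stood at 4.27% ± 0.45 of the reads in CP_0 (SD, n = 3) and 2.72% ± 0.36 in CP_14 and fell (log2 fold change -0.82, SE 0.079, limma adjusted p = 0.000149). MiR-148a, which can target the DNA methyltransferase DNMT1, went from 1.76% ± 0.11 to 3.53% ± 0.08 (SD, n = 3) and rose (log2 fold change 0.84, SE 0.055, limma adjusted p = 2.11e-05). Let-7i held 5.18% ± 0.27 and 5.08% ± 0.20 and was not called (log2 fold change -0.19, SE 0.081, limma adjusted p = 0.0876), except without CP_14 replicate 3 (-0.30) and with upper-quartile factors (-0.44, limma adjusted p = 0.0241).

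Of the 3 cartilage miRNAs 1 was called higher and 0 lower, with a median log2 fold change of 0.02. MiR-140 stood at 10411, 10110.5 and 9398 in CP_0 and 9015, 9252 and 9380.5 in CP_14. The lowest CP_0 value lay just above the highest of CP_14. The difference was not called (log2 fold change -0.11, SE 0.056, limma adjusted p = 0.128). It was called lower without CP_14 replicate 3 (-0.16) and with upper-quartile factors (-0.37, limma adjusted p = 0.017), and took the opposite sign with library size only (0.049, limma adjusted p = 0.641). MiR-455, which lies in an intron of the collagen gene COL27A1, is listed by arm. Its 3p arm stood at 20.99, 26.95 and 27.8 in CP_0 and 38.2, 47.5 and 44.2 in CP_14, without overlap, and rose (log2 fold change 0.76, SE 0.16, limma adjusted p = 0.0065). Its 5p arm stood at 221, 216 and 197 in CP_0 and 199.7, 210.1 and 232 in CP_14 with overlapping groups and was not called (log2 fold change 0.017, SE 0.088, limma adjusted p = 0.902).

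MiR-145, from the same transcript as miR-143, was not called. Its values were 513, 677 and 564 in CP_0 and 506, 522 and 703 in CP_14, so that the groups covered each other almost entirely. Between the groups it differed by -0.026 on the log2 scale (limma adjusted p = 0.91), and the exact permutation test over the 6 libraries gave p = 0.9 (two-sided), where 0.1 is the smallest p that 3 against 3 libraries allow. Whether it differed from miR-143 in its change was not tested.

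Several of the largest rises were in miRNAs that were rare at day 0. MiR-1246, whose reads can also come from fragments of U2 small nuclear RNA, had 13, 16 and 14 reads in CP_0 and 1836, 1943 and 1860 in CP_14. All CP_14 libraries lay far above those of CP_0. Its log2 fold change was 6.72 (SE 0.12, limma adjusted p = 2.74e-08), and as a share of the library it was 145 times higher (95% exact interval 108 to 201, counting error only). The related list holds 1 more name, miR-1248, with 5, 4 and 0 reads in CP_0 and 28, 17 and 17 in CP_14, which also rose (log2 fold change 1.98, SE 0.46, limma adjusted p = 0.0105). MiR-147, induced by Toll-like receptor signalling in macrophages, stood at 8.803, 6.199 and 10.5 in CP_0 and 134, 129.6 and 109 in CP_14. It rose 13.4-fold on this scale (log2 fold change 3.74, SE 0.19, limma adjusted p = 6.04e-06), with each CP_14 library above 100 RPM.

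MiR-2889 had 3, 3 and 2 reads in CP_0 and 88, 59 and 56 in CP_14, 8 reads in the CP_0 libraries together against 203 in those of CP_14. It was called (log2 fold change 3.52, SE 0.30, limma adjusted p = 7.69e-05), a value that the pseudocount lowers, and as a share of the library it was 28.1 times higher (95% exact interval 14.0 to 65.9, counting error only). The same holds for miR-504, chosen after its values were seen, with 8 and 97 reads, a ratio of 13.4 (6.54 to 31.9) and a called rise (log2 fold change 2.56, SE 0.26, limma adjusted p = 0.000209). Both had at least 1 read in every library.

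MiR-210, the miRNA most closely tied to hypoxia and the HIF transcription factors, stood at 15.2, 13.2 and 12.3 in CP_0 and 101, 90.5 and 91 in CP_14. The groups lay far apart and each was narrow. It rose 6.54-fold (log2 fold change 2.71, SE 0.13, limma adjusted p = 3.1e-06), with a range of 2.63 to 2.79 on the log2 scale with each library left out. MiR-184, known from cornea and lens, stood at 118, 115 and 108 in CP_0 and 732, 706 and 705 in CP_14. It rose 6.24-fold (log2 fold change 2.64, SE 0.069, limma adjusted p = 2.01e-07), with the smallest standard error among the 10 largest rises. MiR-2285l, of a large miRNA family of ruminants, stood at 39.6, 37.2 and 36.3 in CP_0 and 192, 202 and 216 in CP_14 and rose 5.28-fold (log2 fold change 2.40, SE 0.090, limma adjusted p = 1.12e-06). The remaining members of the 10 largest rises, miR-148d, miR-181a, miR-181b and miR-129, are described with their families.

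The largest falls were smaller than the largest rises, and none reached 4-fold on the log2(TMM-normalized RPM + 1) scale. MiR-27a-5p, the less abundant arm of a precursor in the miR-23a, miR-27a and miR-24 cluster, stood at 640.2, 633 and 601 in CP_0 and 185, 188 and 186 in CP_14. All 3 values of CP_14 lay close together and far below CP_0. It fell 3.34-fold (log2 fold change -1.74, SE 0.062, limma adjusted p = 1.12e-06). MiR-378, which lies in an intron of PPARGC1B, a coactivator gene of mitochondrial metabolism, stood at 1938, 1859 and 1769.8 in CP_0 and 697, 682 and 643 in CP_14. It fell 2.75-fold (log2 fold change -1.46, SE 0.062, limma adjusted p = 2.05e-06), also without overlap.

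MiR-339a stood at 208, 166 and 191 in CP_0 and 73.4, 73.3 and 61.6 in CP_14 and fell 2.68-fold (log2 fold change -1.42, SE 0.12, limma adjusted p = 7.27e-05). Lower-abundance falls were those of miR-4286 (-1.65), miR-1260b (-1.58), miR-2478 (-1.47) and miR-331-3p (-1.07), with adjusted p between 0.000477 and 0.00868 by limma. Their highest values were 17.8, 50.4, 108 and 22.3 in the same order, each in a CP_0 library. MiR-92b, miR-20a and miR-93, also among the 10 largest falls, are described with the list of the proliferation clusters below.

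**Figure D2:**
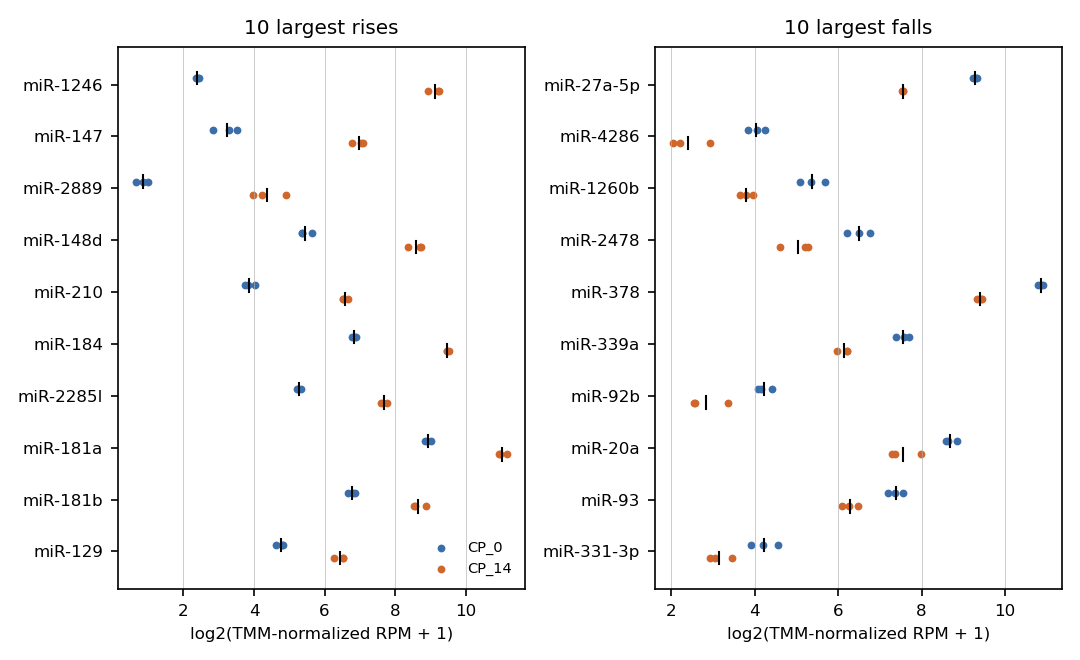
Values per library of the 10 largest rises (left) and 10 largest falls (right) among called miRNAs with a mean of at least 50 reads in a group, as log2(TMM-normalized RPM + 1) on the x axis, with blue points for CP_0, orange points for CP_14 and a bar at each group's mean. In every one of these miRNAs the points of both groups lie apart, by the widest gap for miR-1246.

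The miR-17 to miR-92 clusters, which MYC and E2F switch on in dividing cells, held only falls among their calls. Of 15 listed members 11 were tested, of which 0 were called higher and 6 lower, with a median log2 fold change of -0.77 beside 0.01 over all miRNAs tested. MiR-20a stood at 382, 460.3 and 398 in CP_0 and 157, 163 and 251 in CP_14, with CP_14 replicate 3 nearest to CP_0, and fell (log2 fold change -1.15, SE 0.18, limma adjusted p = 0.00208). MiR-93, from an intron of MCM7, a gene of the replication helicase, stood at 147, 187 and 164 in CP_0 and 66.8, 75.1 and 88.7 in CP_14 and fell (log2 fold change -1.103, SE 0.14, limma adjusted p = 0.000543). Its neighbour miR-106b stood at 51.5, 63.6 and 58.5 in CP_0 and 28.6, 29.7 and 29.4 in CP_14 and fell (log2 fold change -0.96, SE 0.12, limma adjusted p = 0.000543). The other 3 falls were miR-17-5p (-0.93), miR-18a (-0.77) and miR-92b (-1.39). MiR-92b was listed here by its name and need not lie in 1 of these clusters. All 6 were called with each library left out and with every scaling tried, but with the 9 RMC libraries in 1 fit miR-92b (-1.43, limma adjusted p = 0.0638) and miR-18a (-0.80, limma adjusted p = 0.0539) were not. Among the 5 uncalled members the log2 fold change ran up to 2.18 for miR-363, which is 1 of the 8 miRNAs that stood out in CP_0 replicate 3. The most abundant member, miR-92a, was not called (log2 fold change 0.24, limma adjusted p = 0.391). Without CP_0 replicate 3 it was called higher (0.49, limma adjusted p = 0.00626). The 15 listed members together held 1635 to 2068 RPM in CP_0 and 1561 to 1751 RPM in CP_14, so their sums overlapped.

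The miR-199 and miR-214 group, in which miR-214 and a copy of miR-199a share a transcript from the strand opposite DNM3, was called in all of its 7 listed members, 5 higher and 2 lower (median log2 fold change 0.66). MiR-199a-3p stood at 5723, 5081 and 4961 in CP_0 and 10311, 9877 and 9363 in CP_14 and rose (log2 fold change 0.91, SE 0.072, limma adjusted p = 5.82e-05). Its mature strand can come from more than 1 gene, and the name miR-3604 held the same reads within 1% in every library, so these are 1 measurement under separate names. MiR-214, a regulator of osteoblast function, stood at 199, 171 and 174 in CP_0 and 303, 283 and 277 in CP_14 and rose (log2 fold change 0.66, SE 0.087, limma adjusted p = 0.000679). MiR-199c, at 56.9, 42.9 and 48.3 in CP_0 and 133, 132 and 112 in CP_14, rose by the most in the group (log2 fold change 1.33, SE 0.13, limma adjusted p = 0.000189).

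In contrast, miR-199b stood at 1598, 1800.1 and 1571 in CP_0 and 799.6, 786 and 1023 in CP_14 and fell (log2 fold change -0.94, SE 0.11, limma adjusted p = 0.000496). The 5p arm of miR-199a was lower by a smaller margin, at 1710.1, 1816 and 1625 in CP_0 and 1230.0, 1301 and 1599 in CP_14 (log2 fold change -0.33, SE 0.10, limma adjusted p = 0.0374), and was no longer called without CP_0 replicate 1 (-0.33), CP_0 replicate 2 (-0.29), CP_14 replicate 1 (-0.28) or CP_14 replicate 2 (-0.33). MiR-3120, which lies on the strand opposite miR-214, was higher (log2 fold change 0.29, limma adjusted p = 0.035) and was no longer called without CP_0 replicate 1 (0.28), CP_0 replicate 3 (0.25), CP_14 replicate 1 (0.25) or CP_14 replicate 2 (0.24) and, among other settings, with upper-quartile factors (0.043, limma adjusted p = 0.772).

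Of the miR-29 family, 4 of 5 listed members were tested, with 3 higher and 0 lower (median 0.95). MiR-29a, by far the most abundant, stood at 1093, 1114 and 1006 in CP_0 and 1195, 1144 and 1244 in CP_14. These values did not overlap, but the difference was not called (log2 fold change 0.16, SE 0.065, limma adjusted p = 0.0812), except with library size only (0.32, limma adjusted p = 0.012), and its sign turned with upper-quartile factors (-0.10, limma adjusted p = 0.484). The rarer miR-29b stood at 46.05, 42.6 and 37.5 in CP_0 and 53.6, 63.3 and 76.96 in CP_14 and was called (log2 fold change 0.60, SE 0.16, limma adjusted p = 0.0176), though not without CP_14 replicate 2 (0.56) or with upper-quartile factors (0.35, limma adjusted p = 0.158). MiR-29c, at 3.39, 1.89 and 2.34 in CP_0 and 15.5, 8.78 and 11.4 in CP_14, rose (log2 fold change 1.86, SE 0.29, limma adjusted p = 0.00163), and miR-29d-5p rose as well (log2 fold change 1.301, limma adjusted p = 0.00632).

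In the miR-148 and miR-152 family 3 of 5 tested members were called, each higher (median 0.65). MiR-148d stood at 49.1, 39.9 and 40.4 in CP_0 and 416, 425 and 327 in CP_14. It rose 8.82-fold (log2 fold change 3.14, SE 0.14, limma adjusted p = 2.05e-06). MiR-148b stood at 288, 321 and 248 in CP_0 and 445, 466 and 431 in CP_14 and rose (log2 fold change 0.65, SE 0.10, limma adjusted p = 0.00172). The names miR-148c and miR-152 held identical reads and were not called.

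The miR-181 family, studied in lymphocyte and muscle differentiation, had 2 of 3 tested members higher. The third, miR-181d, was not called and went the other way (log2 fold change -0.42), with a mean of 58.7 reads in CP_0 and 43.3 in CP_14. MiR-181a stood at 479.8, 517 and 462 in CP_0 and 1983, 1992 and 2282 in CP_14 and rose 4.28-fold (log2 fold change 2.097, SE 0.079, limma adjusted p = 1.12e-06). MiR-181b stood at 110.4, 116 and 101 in CP_0 and 380.4, 366 and 471 in CP_14 and rose 3.67-fold (log2 fold change 1.88, SE 0.11, limma adjusted p = 1.5e-05). All CP_14 values were more than 3 times the highest of CP_0 for both. MiR-181a was also the most abundant of the 11 called miRNAs that were at least 4-fold higher.

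Among the muscle miRNAs 3 of 5 tested members were higher and 0 lower (median 1.35). The 2 uncalled were miR-206 (2.55), described below with CP_0 replicate 3, and miR-499, which went the other way (-0.51). MiR-499 had a mean of 12.3 reads in CP_0 and 7.67 in CP_14. MiR-1, a miRNA of heart and skeletal muscle, stood at 549.8, 561 and 671 in CP_0 and 1471, 1471 and 1591 in CP_14 and rose (log2 fold change 1.35, SE 0.089, limma adjusted p = 2.21e-05). MiR-133a, made from the same transcripts, stood at 29.1, 29.6 and 38.3 in CP_0 and 85.2, 68.7 and 87.6 in CP_14 and rose (log2 fold change 1.29, SE 0.15, limma adjusted p = 0.000488). MiR-133b had 2, 3 and 9 reads in CP_0 and 25, 18 and 25 in CP_14 and was called (log2 fold change 1.78, SE 0.37, limma adjusted p = 0.00676), though not with the 9 RMC libraries in 1 fit (1.88, limma adjusted p = 0.0741). The 8 muscle miRNAs together held 540 to 689 RPM in CP_0 and 1688 to 1761 RPM in CP_14, nearly all of it miR-1, while 2 of the 8 had at most 3 reads in each library. Whether muscle cells had a part in this was not tested.

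Beside 24.8% called higher over all miRNAs tested, the neural list had 3 of 4 tested members higher and 0 lower (median 0.95). Of these, miR-129 stood at 27.4, 26.95 and 23.7 in CP_0 and 91.1, 91.4 and 76.2 in CP_14 and rose (log2 fold change 1.69, SE 0.12, limma adjusted p = 4.09e-05), but it was not called with the 9 RMC libraries in 1 fit (1.68, limma adjusted p = 0.105) or with all 12 (1.67, limma adjusted p = 0.0623). In the same list miR-9-5p, known from neural progenitors, stood at 101, 85.97 and 87.8 in CP_0 and 145, 155 and 173 in CP_14 and was called higher (log2 fold change 0.78, SE 0.11, limma adjusted p = 0.000829), though not with the 9 RMC libraries in 1 fit (0.76, limma adjusted p = 0.515) or with all 12 (0.76, limma adjusted p = 0.453). Its other arm, miR-9-3p, had 4, 7 and 3 reads in CP_0 and 11, 13 and 18 in CP_14 and was called (log2 fold change 1.11, SE 0.29, limma adjusted p = 0.0177), though not without CP_14 replicate 2 (1.097) or by DESeq2 (1.54, DESeq2 adjusted p = 0.086). The remaining tested member, miR-128, was not called and went slightly the other way (log2 fold change -0.13). MiR-128 had a mean of 306 reads in CP_0, as many as miR-9-5p, and 282 in CP_14. The 8 neural miRNAs together held 180 to 230 RPM in CP_0 and 330 to 382 RPM in CP_14, and 2 of them had at most 3 reads in each library. The part of neural cells in this was not tested.

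**Figure D3:**
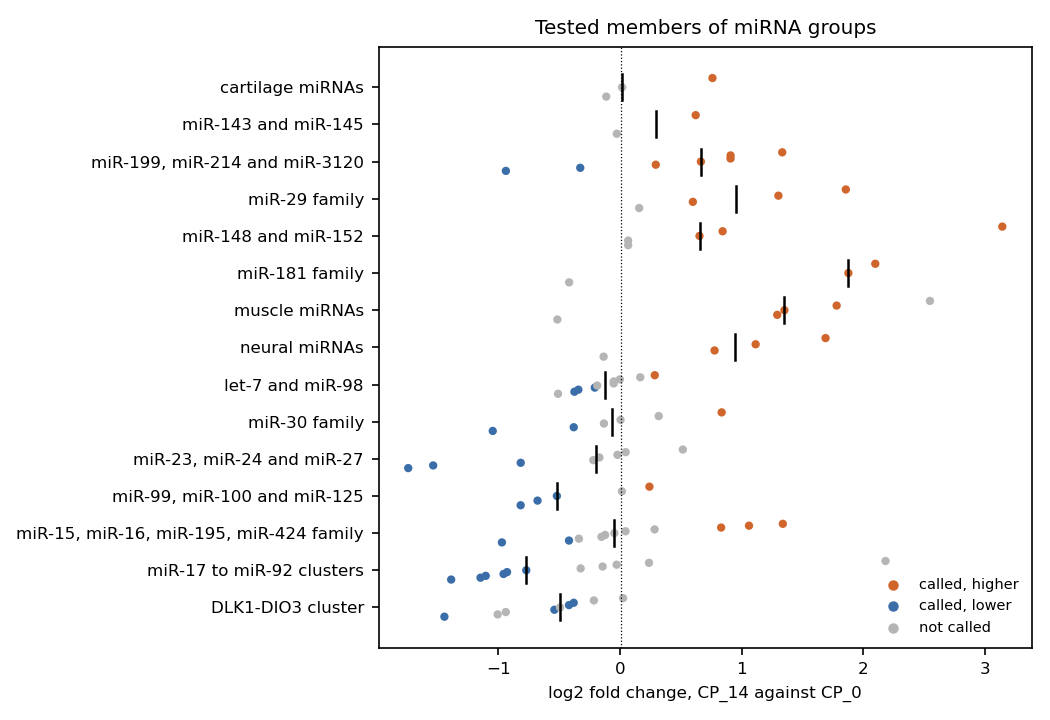
Log2 fold change of CP_14 against CP_0 (x axis) of each tested member of 15 miRNA groups (rows), with orange points for called higher, blue for called lower, grey for not called and a black bar at each group's median. The dotted line is the median of all 250 miRNAs (0.01), and the miR-181, muscle, miR-29, neural, miR-148 and miR-199 groups have medians above 0.6, while the miR-17 to miR-92 clusters have the lowest (-0.77).

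Some abundant families held calls in both directions. The let-7 family, which holds back proliferation in differentiated cells, had 1 of 10 members higher and 3 lower (median -0.12). These 4 calls of 10 lie near the 46% called over all miRNAs tested. Let-7g stood at 4263, 4558 and 4086 in CP_0 and 3209, 3268 and 3718 in CP_14 and fell (log2 fold change -0.34, SE 0.076, limma adjusted p = 0.00868), and let-7c fell as well (log2 fold change -0.37, limma adjusted p = 0.00897). Let-7b, which shares its reads with miR-3596, was lower (log2 fold change -0.21, limma adjusted p = 0.0196) but not called without CP_0 replicate 1 (-0.19) or CP_0 replicate 2 (-0.20). Let-7d was higher (log2 fold change 0.29, limma adjusted p = 0.0374), a call that was lost whichever library was left out, at 0.22 to 0.33. With library size only none of the 3 falls was called, and with upper-quartile factors let-7d stood at a log2 fold change of 0.035.

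Of the miR-99, miR-100 and miR-125 group, 5 members were tested, 3 lower and 1 higher (median -0.52). MiR-100, which can target MTOR, stood at 29363, 28702 and 28248 in CP_0 and 16203, 16364 and 16450.4 in CP_14. The groups were narrow and far apart, and it fell 1.76-fold (log2 fold change -0.82, SE 0.046, limma adjusted p = 8.92e-06). MiR-99a-5p stood at 2539, 2317 and 2364 in CP_0 and 1512, 1525 and 1473 in CP_14 and fell (log2 fold change -0.68, SE 0.057, limma adjusted p = 7.27e-05), and miR-125b fell as well (log2 fold change -0.52, limma adjusted p = 0.000235). In the other direction miR-99b stood at 1586, 1597 and 1529 in CP_0 and 1845, 1828 and 1898 in CP_14 and was called higher (log2 fold change 0.24, SE 0.051, limma adjusted p = 0.00693), with the sign turned under upper-quartile factors (-0.011, limma adjusted p = 0.932) and no call with the 9 RMC libraries in 1 fit (0.22, limma adjusted p = 0.0638) or by DESeq2 (0.21, DESeq2 adjusted p = 0.0508).

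The miR-30 family had 1 of 6 members higher and 2 lower (median -0.06). These 3 calls of 6 lie near the 46% called over all miRNAs tested. MiR-30b-5p stood at 83.97, 81.4 and 74.6 in CP_0 and 133, 137 and 161 in CP_14 and rose (log2 fold change 0.84, SE 0.11, limma adjusted p = 0.000598), whereas miR-30e-5p stood at 625, 776 and 649 in CP_0 and 268, 295 and 451 in CP_14 and fell (log2 fold change -1.05, SE 0.20, limma adjusted p = 0.00444). MiR-30c was lower (log2 fold change -0.38, limma adjusted p = 0.0282) and not called without CP_0 replicate 2 (-0.38), CP_0 replicate 3 (-0.30), CP_14 replicate 1 (-0.35) or CP_14 replicate 2 (-0.44), with library size only (-0.22, limma adjusted p = 0.151) or with the 9 RMC libraries in 1 fit (-0.40, limma adjusted p = 0.135) or all 12 (-0.40, limma adjusted p = 0.0897).

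The miR-15 and miR-16 family restrains the cell cycle through cyclins. Its list, which also took in miR-450a, miR-450b and miR-424-3p, had 3 of 11 tested members higher and 2 lower (median -0.05). These numbers are thus not those of the family alone, and the 5 calls of 11 lie near the 46% called over all miRNAs tested. MiR-16a stood at 14.2, 12.4 and 14.3 in CP_0 and 31.3, 43 and 34.6 in CP_14 and rose (log2 fold change 1.34, SE 0.16, limma adjusted p = 0.000496). MiR-497 stood at 28.8, 26.95 and 27.5 in CP_0 and 15.1, 12.7 and 13.3 in CP_14 and fell (log2 fold change -0.97, SE 0.14, limma adjusted p = 0.00109). MiR-424-3p rose (log2 fold change 1.06, limma adjusted p = 0.00469), as did miR-503-5p of the same cluster (log2 fold change 0.83, limma adjusted p = 0.0157), the latter not called without CP_14 replicate 1 (0.78) or CP_14 replicate 2 (0.73). The related miR-15b was lower (log2 fold change -0.42, limma adjusted p = 0.0235) and not called without CP_0 replicate 1 (-0.45), CP_0 replicate 2 (-0.37) or CP_14 replicate 1 (-0.45), nor with library size only (-0.26, limma adjusted p = 0.174), with the 9 RMC libraries in 1 fit (-0.44, limma adjusted p = 0.0585) or by DESeq2 (-0.46, DESeq2 adjusted p = 0.0615).

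Single calls stood in several small groups. MiR-221, which targets the cell-cycle inhibitor p27, stood at 1391, 1397 and 1327 in CP_0 and 2111, 1998 and 2147 in CP_14 and rose (log2 fold change 0.60, SE 0.056, limma adjusted p = 0.000116). Its partner miR-222 was not called (log2 fold change 0.30, limma adjusted p = 0.0519), but was called without CP_0 replicate 2 (0.42), with library size only (0.47, limma adjusted p = 0.00482) and with a pseudocount of 5 RPM (0.30, limma adjusted p = 0.0498). MiR-26b stood at 493, 509 and 468 in CP_0 and 832, 889 and 919 in CP_14 and rose (log2 fold change 0.84, SE 0.067, limma adjusted p = 5.82e-05), while miR-26a and miR-26c, which held identical reads, were not called. MiR-101 was higher (log2 fold change 0.17, limma adjusted p = 0.0374), not called without CP_0 replicate 1 (0.19), CP_0 replicate 2 (0.19), CP_0 replicate 3 (0.14), CP_14 replicate 1 (0.13) or CP_14 replicate 2 (0.13), turned in sign with upper-quartile factors (-0.08, limma adjusted p = 0.479) and was not called by DESeq2 (0.14, DESeq2 adjusted p = 0.203), among other settings. In a HOX cluster lies miR-10b, which was lower (log2 fold change -0.67, limma adjusted p = 0.0283), though not without CP_0 replicate 1 (-0.67), CP_0 replicate 2 (-0.66), CP_14 replicate 1 (-0.69) or CP_14 replicate 2 (-0.52), with library size only (-0.51, limma adjusted p = 0.0517) or with the 9 RMC libraries in 1 fit (-0.69, limma adjusted p = 0.439) or all 12 (-0.68, limma adjusted p = 0.371).

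The miR-23, miR-24 and miR-27 group had 0 of 8 members higher and 3 lower, which were miR-27b, miR-27a-5p and miR-23b-5p. MiR-23b-5p had 9, 21 and 24 reads in CP_0 and 3, 5 and 3 in CP_14 and was called (log2 fold change -1.53, SE 0.35, limma adjusted p = 0.01), but did not pass the filter on low counts without CP_0 replicate 2 or 3. The pseudocount makes this fall come out smaller than in the reads. Of the miR-34 and miR-449 group, which shares a seed and includes p53 targets, miR-449a fell (log2 fold change -0.92, limma adjusted p = 0.00148) and miR-34a was higher (log2 fold change 0.28, limma adjusted p = 0.0196), though not without CP_0 replicate 2 (0.27) or CP_14 replicate 2 (0.22) and, among other settings, with upper-quartile factors (0.026, limma adjusted p = 0.865).

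Of the inflammation miRNAs 2 of 3 tested were higher, miR-147 (above) and miR-155. MiR-155, an NF-kappaB target of activated leukocytes, stood at 617, 744 and 629 in CP_0 and 800.3, 864 and 1324 in CP_14, with CP_14 replicate 3 far above the rest. It was called (log2 fold change 0.55, SE 0.19, limma adjusted p = 0.0461) but not without CP_0 replicate 1 (0.50), CP_0 replicate 2 (0.64), CP_0 replicate 3 (0.52), CP_14 replicate 2 (0.60) or CP_14 replicate 3 (0.30) and, among other settings, with upper-quartile factors (0.30, limma adjusted p = 0.3). MiR-146b stood at 19.3, 14.8 and 4.68 in CP_0 and 2.63, 5.75 and 5.2 in CP_14 with overlapping groups and was not called (log2 fold change -1.19, SE 0.50, limma adjusted p = 0.084), except without CP_0 replicate 3 (-1.75), with upper-quartile factors (-1.41, limma adjusted p = 0.0459) and by DESeq2 (-1.51, DESeq2 adjusted p = 0.0114).

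The imprinted DLK1-DIO3 cluster, which is active in stem and embryonic cells, had 45 listed members, of which 36 did not pass the filter. Of the 9 tested, 0 were higher and 4 lower (median -0.49). These 4 calls of 9 lie near the 46% called over all miRNAs tested, where 21.2% were lower. MiR-411a stood at 96.8, 99.4 and 102 in CP_0 and 64.5, 72.97 and 66.8 in CP_14 and fell (log2 fold change -0.54, SE 0.090, limma adjusted p = 0.00249). The other 3, miR-379 (-0.38), miR-127 (-0.42) and miR-154c (-1.44), had adjusted p between 0.0169 and 0.0374 by limma. MiR-379 was not called without CP_0 replicate 1 (-0.34) or CP_0 replicate 2 (-0.38), miR-127 not without CP_0 replicate 1 (-0.31) or CP_14 replicate 2 (-0.46) and miR-154c not without CP_0 replicate 1 (-1.28). With the 9 RMC libraries in 1 fit none of miR-379 (-0.40, limma adjusted p = 0.0657), miR-127 (-0.44, limma adjusted p = 0.312) and miR-154c (-1.54, limma adjusted p = 0.0585) was called. In the list of bone and mesenchymal miRNAs, 0 of 10 tested were higher and 2 lower, miR-218 (log2 fold change -0.53, limma adjusted p = 0.0107) and miR-193b (log2 fold change -0.20, limma adjusted p = 0.0408). With library size only neither miR-218 (-0.38, limma adjusted p = 0.0743) nor miR-193b (-0.035, limma adjusted p = 0.733) was called, and miR-218 was not with the 9 RMC libraries in 1 fit (-0.55, limma adjusted p = 0.156) or all 12 (-0.55, limma adjusted p = 0.0986). MiR-193b was also not called without CP_0 replicate 1 (-0.19), CP_0 replicate 2 (-0.21), CP_0 replicate 3 (-0.19), CP_14 replicate 1 (-0.22) or CP_14 replicate 2 (-0.22).

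Of 11 tested miRNAs that often serve to scale qRT-PCR, 3 were higher, 3 lower and 5 not called (median -0.05). These 6 calls of 11 lie near the 46% called over all miRNAs tested. MiR-103, from an intron of a pantothenate kinase gene, stood at 738, 796 and 717 in CP_0 and 476, 459.9 and 522 in CP_14 and fell (log2 fold change -0.63, SE 0.075, limma adjusted p = 0.000488), and the closely related miR-107 fell too (log2 fold change -0.62, limma adjusted p = 0.00971), though it was not called with library size only (-0.46, limma adjusted p = 0.0655). MiR-93 and miR-16a are described above. MiR-320a stood at 157, 179 and 203 in CP_0 and 267, 240.4 and 291 in CP_14 and was called higher (log2 fold change 0.57, SE 0.12, limma adjusted p = 0.00676), though not with upper-quartile factors (0.32, limma adjusted p = 0.102). MiR-423-5p stood at 335, 308 and 377 in CP_0 and 589, 555 and 525 in CP_14 and rose (log2 fold change 0.71, SE 0.092, limma adjusted p = 0.000647), while miR-423-3p of the same hairpin was not called (log2 fold change -0.053, limma adjusted p = 0.604) except with upper-quartile factors, as lower (-0.31, limma adjusted p = 0.0246).

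Of the numbered miRNAs known from ruminants, such as the miR-2284 and miR-2285 families, 15 of 93 were tested, with 1 higher, miR-2285l, and 3 lower. The falls were those of miR-2478, miR-2285bc (log2 fold change -1.41, limma adjusted p = 0.00539) and miR-2285bp (log2 fold change -0.66, limma adjusted p = 0.0455), the last not called without CP_0 replicate 2 (-0.49), CP_0 replicate 3 (-0.65), CP_14 replicate 1 (-0.54) or CP_14 replicate 2 (-0.75) or with library size only (-0.50, limma adjusted p = 0.0725), among other settings. Of the 70 miRNAs named novel_, 8 were tested, with 4 higher and 2 lower. Novel_37 stood at 47.1, 50.1 and 35.4 in CP_0 and 72.7, 73.9 and 83.2 in CP_14 and rose (log2 fold change 0.79, SE 0.15, limma adjusted p = 0.00461). Novel_303 had 2, 3 and 0 reads in CP_0 and 18, 22 and 19 in CP_14 and novel_357 had 0, 3 and 2 reads in CP_0 and 13, 18 and 22 in CP_14, and both were called (log2 fold change 2.23 and 2.11, adjusted p = 0.00157 and 0.00213 by limma). Novel_420 was higher (1.18) and not called without CP_0 replicate 2 (1.06), CP_14 replicate 1 (1.02) or CP_14 replicate 2 (0.97) or with no filter (1.18, limma adjusted p = 0.0516). In the other direction, novel_64 was lower (-0.68), though not without CP_0 replicate 1 (-0.61) or CP_0 replicate 2 (-0.69) or with library size only (-0.53, limma adjusted p = 0.102), and novel_74 was lower (-0.91), though not without CP_0 replicate 1 (-0.77) or with the 9 RMC libraries in 1 fit (-0.95, limma adjusted p = 0.107) or all 12 (-0.94, limma adjusted p = 0.0623).

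Outside the lists, some further called miRNAs, chosen after their values were seen, showed narrow groups. MiR-185 stood at 320.3, 344 and 351 in CP_0 and 185, 162 and 182 in CP_14 and fell (log2 fold change -0.94, SE 0.082, limma adjusted p = 8.48e-05). MiR-1839 stood at 146, 145 and 138 in CP_0 and 258, 272 and 289 in CP_14 and rose (log2 fold change 0.93, SE 0.076, limma adjusted p = 7.01e-05). MiR-186 rose (log2 fold change 0.78, limma adjusted p = 0.000647), as did miR-328 (log2 fold change 1.48, limma adjusted p = 0.00157) and miR-7857-5p (log2 fold change 1.397, limma adjusted p = 7.99e-05). All 5 were called with each library left out.

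The arms of 1 hairpin are counted in the same library, so their ratio does not depend on the scaling. These ratios were formed after the values had been seen. Of 19 hairpins with both arms tested, 11 had ratios that did not overlap between the groups. This is near the share of single miRNAs without overlap, which was 141 of the 250 tested (56.4%). Of the 7 hairpins with at least 50 reads on each arm in each library, 6 had ratios without overlap. For 3 of the 11, miR-27a, miR-199a and miR-23b, the mean ratios differed by at least 2-fold. The exact permutation test (two-sided) gave p = 0.1 for each of the 11, the smallest that 3 against 3 libraries allow, and 0.173 after adjustment over the 19.

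The 5p to 3p ratio of miR-27a was 0.133, 0.1598 and 0.137 in CP_0 and 0.0399, 0.0406 and 0.0495 in CP_14, a difference of -1.72 on the log2 scale. The 5p arm fell, while miR-27a-3p, at 4831, 3963 and 4395 in CP_0 and 4647, 4627 and 3750.1 in CP_14, was not called (log2 fold change -0.02, SE 0.11, limma adjusted p = 0.902) except with upper-quartile factors, as lower (-0.27, limma adjusted p = 0.0365). For miR-199a the ratio was 0.299, 0.357 and 0.328 in CP_0 and 0.119, 0.132 and 0.171 in CP_14 (-1.23 on the log2 scale), where the 3p arm rose and the 5p arm was called lower. Since miR-199a-3p can be made from more than 1 gene, this ratio need not belong to 1 hairpin. The ratio of miR-455 was 10.5, 8.0 and 7.08 in CP_0 and 5.23, 4.42 and 5.25 in CP_14 (-0.77). Its 3p arm was called and its 5p arm was not.

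For miR-423 the difference had the other sign, with ratios below or near 1 at day 0 and well above it at day 14, at 0.939, 0.878 and 1.014 in CP_0 and 1.56, 1.69 and 1.56 in CP_14 (0.77). The log2 ratio of miR-365 was also higher at day 14 (0.67), and that of miR-151 was lower (-0.47). The ratio of miR-22 was 0.0373, 0.0339 and 0.0315 in CP_0 and 0.0377, 0.0363 and 0.0341 in CP_14 and overlapped.

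**Figure D4:**
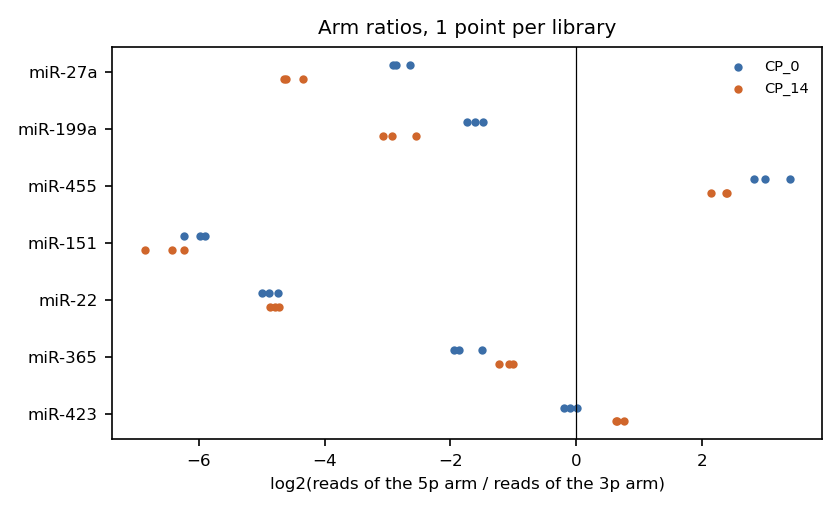
Log2 of the reads of the 5p arm over those of the 3p arm (x axis) for the 7 hairpins with at least 50 reads on each arm in each library (rows), with 1 point per library, blue for CP_0 and orange for CP_14. The groups lie apart for 6 hairpins, with the widest distance for miR-27a, and overlap for miR-22.

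Several of the largest differences in means were not called, and in these CP_0 replicate 3 differed from the other CP_0 libraries. MiR-451 and miR-486, which are made in maturing red blood cells, were the clearest. MiR-451 had 27, 29 and 6933 reads in CP_0 and 6431, 6039 and 6109 in CP_14. CP_0 replicate 3 lay with the CP_14 libraries and not with its own group. The log2 fold change was 5.02 (limma adjusted p = 0.0682, exact permutation p = 0.3) with all 6 libraries and 7.60 (limma adjusted p = 7.67e-10) without CP_0 replicate 3.

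MiR-486 had 7, 20 and 8312 reads in CP_0 and 7992, 7615 and 7363 in CP_14, the same pattern. Its log2 fold change was 5.92 (limma adjusted p = 0.0679) and 8.94 (limma adjusted p = 1.11e-08) without that library. With all 12 libraries in 1 fit miR-451 (5.005, limma adjusted p = 0.0285) and miR-486 (5.92, limma adjusted p = 0.0306) were called. The other 6 with at least 4-fold more in CP_0 replicate 3 than in both other CP_0 libraries were miR-142-5p and miR-223, known from leukocytes, miR-182, known from sensory epithelium, miR-206, known from skeletal muscle, miR-34c and miR-363. MiR-34c had 49, 47 and 273 reads in CP_0 and 223, 295 and 247 in CP_14. For miR-182 the numbers were 13, 13 and 94 reads in CP_0 and 112, 94 and 100 in CP_14, and for miR-142-5p they were 9, 6 and 86 reads in CP_0 and 65, 68 and 59 in CP_14. MiR-206 had 1, 1 and 52 reads in CP_0 and 148, 37 and 31 in CP_14, with CP_14 replicate 1 above the other libraries.

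With all 6 libraries their log2 fold changes were 1.498 for miR-34c, 1.81 for miR-182, 1.61 for miR-142-5p, 2.55 for miR-206, 2.18 for miR-363 and 1.38 for miR-223, and none was called (adjusted p between 0.0586 and 0.122 by limma). Of these, miR-182 was called with library size only (1.96, limma adjusted p = 0.0364) and with no filter (1.81, limma adjusted p = 0.0484), and miR-363 with all 12 libraries in 1 fit (2.22, limma adjusted p = 0.0325). All 8 were called without CP_0 replicate 3, where these 6 ran from 2.17 to 3.77. Since the 8 were picked for their high values in that library, their calls and p-values without it are not independent support. In all, 24 calls were gained and 11 were lost without CP_0 replicate 3. Among those gained were also miR-150, of lymphocytes (1.498 with all 6 libraries and 2.06 without), and the epithelial miR-200a (0.62 and 0.93). The epithelial miR-200c was gained too, but as lower (-0.91 and -1.28).

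Read numbers of these miRNAs in the other groups were set beside them. For 7 of the 8, all but miR-206, the reads in CP_0 replicate 3, the CP_14 and the CC libraries lay above those of the 5 other libraries. The former are 7 libraries of 2791559 to 10256572 reads, while the CP_7 libraries among the latter held only 539455 to 1032029. The separation held for reads, but not for every miRNA as a share of the library. MiR-182 held 9.65 to 10.7 RPM in CC, while CP_7 replicate 3 had 24 reads, each worth 1.85 RPM. MiR-142-5p held 4.81 to 5.46 RPM in CC, while CP_7 replicate 2 had 14 reads, each worth 0.969 RPM. MiR-451 had 6039 to 6933 reads in the 7 libraries and 2 to 29 in the 5, and miR-486 had 7363 to 8345 and 7 to 133. Read numbers of both were thus close to each other in the 7 libraries, although the depths differed. The 7 blood-lineage miRNAs together held 17.2, 14.4 and 4223 RPM in CP_0 and 5200, 4550 and 3508 RPM in CP_14. MiR-144, made from the same transcript as miR-451, had at most 3 reads in each of the 6 libraries. Of the 5 blood-lineage miRNAs tested, 0 were called in the fit of the 6 libraries. Whether blood cells had a part in these values was not tested.

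**Figure D5:**
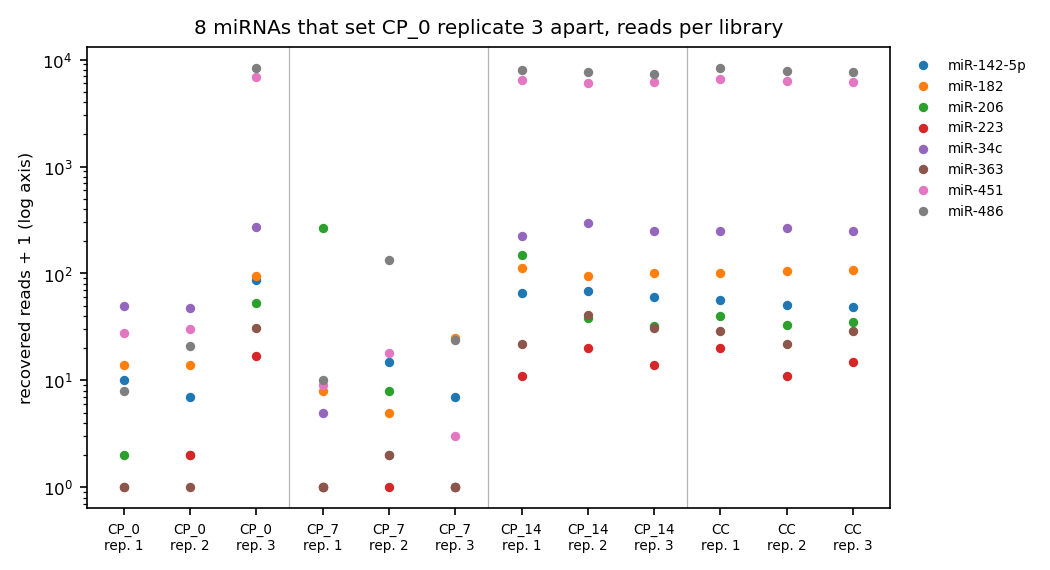
Recovered reads + 1 on a log axis (y axis) of the 8 miRNAs at least 4-fold higher in CP_0 replicate 3 than in both other CP_0 libraries, in each of the 12 libraries (x axis), with 1 colour per miRNA. In read numbers, without regard to depth, CP_0 replicate 3 resembles the CP_14 and CC libraries, with miR-451 between 6039 and 6933 reads and miR-486 between 7363 and 8345 in these 7.

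The values at day 7 and in chondrocytes (CC) are given beside those of the comparison, scaled over all 12 libraries (TMM-normalized RPM, mean ± SD, n = 3) and always in the order CP_0, CP_7, CP_14 and CC, with no test. MiR-1246 stood at 4.61 ± 0.107, 281 ± 76.8, 595 ± 70.01 and 1.78 ± 0.547. MiR-184 stood at 123 ± 4.33, 158 ± 23.9, 761 ± 16.1 and 18.1 ± 1.17, with the lowest mean in CC. MiR-210 was at 14.6 ± 1.48, 75.8 ± 12.5, 100.3 ± 6.26 and 5.99 ± 1.69.

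MiR-181a stood at 524 ± 24.8, 2509.9 ± 345, 2222 ± 179.9 and 1081 ± 72.4 and miR-148d at 46.5 ± 5.28, 129 ± 23.1, 415 ± 57.9 and 93 ± 16.5. Among the falls, miR-27a-5p was at 674 ± 13.1, 74.3 ± 7.09, 198 ± 1.803 and 419 ± 14.4, lowest at day 7. MiR-378 stood at 2001 ± 66.9, 682 ± 155, 718 ± 29.7 and 765 ± 10.9, with the last 3 means close. MiR-20a was at 446 ± 42.6, 211 ± 50.5, 203 ± 56.4 and 899 ± 99.9, so that the CC mean was above that of CP_0, whereas its mean in CP_14 was below. MiR-199b stood at 1787 ± 121, 1625 ± 219, 926 ± 141 and 716 ± 67.6, the means falling in this order of groups.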

How the data were processed

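Small RNA libraries of the 3 CP_0 and 3 CP_14 samples, made with a NEBNext small RNA kit, were analysed, with the CP_7 and CC libraries for scaling alternatives and side values. The authors deposited RPM values (headed TPM): each library sums to 1000000, and a value is the miRNA's part of that total, not divided by length. The submitters' processing notes name CASAVA, bcl2fastq 1.8.4 and Bowtie, with no role given, while how reads were trimmed and which miRNA database was used is not given in the sources used here. Names are those of cattle miRNAs, so deer reads that differ from cattle sequences may be missed or split.

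Within 0.01 read, 100% of the values came out as whole reads, which were recovered. They were used for TMM factors (edgeR 4.0.16), for the filter filterByExpr (minimum count 10, minimum total 15) and for the count tests. The main test was limma 3.58.1 with an intensity trend in R 4.3.3 on log2(TMM-normalized RPM + 1) of the 6 libraries, two-sided, with p-values adjusted after Benjamini and Hochberg over 250 miRNAs and a threshold of 0.05. The edgeR quasi-likelihood test on recovered reads called 112 miRNAs and DESeq2 1.42.0 called 104. The procedure was tested on simulated data. The libraries have no molecular identifiers, so reads can be copies of 1 molecule, and intervals cover counting error only.

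Members, lists and tests were chosen with earlier results of these data known. Named were the 10 largest rises and falls among calls with a mean of at least 50 reads in a group and no overlap, the 5 most abundant miRNAs, the 5 largest uncalled differences, miR-145, miR-140, miR-143, both arms of miR-21 and miR-199a-3p, up to 4 abundant members of each list, and miRNAs whose call depends on CP_0 replicate 3. Other names were chosen after their values were seen. Names within 1% of each other in every library (6 pairs) were also collapsed. Other alternatives were scalings, filters, pseudocounts of 0.5 and 5 RPM, thresholds, fits on 9 or 12 libraries, a replicate block and leaving out each library. No library pair of a group matched within sampling noise. No sequences were at hand and none is shown.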

Additional observations from a re-analysis of the deposited data

How the results depend on the processing

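Of the 115 calls, 67 were kept in every setting that tested them, 41 higher and 26 lower. Adding a 2-fold minimum had the strongest effect on the calls, which came to 48 (33 higher, 15 lower), or 57 (40 higher, 17 lower) with an unadjusted p under 0.05 and the same minimum. Calls of lower miRNAs numbered 91 under upper-quartile scaling, 33 by library size alone and 34 with the 9 RMC libraries in 1 fit, where 81 of the 115 calls were kept. Leaving out each library gave 96 to 138 calls, 51 to 74 of them higher and 38 to 70 lower. The labels do not say whether replicate numbers pair the libraries. Same-numbered ones correlated at -0.020, -0.036 and -0.18 in their deviations from the group means, and differently numbered ones at -0.27 to 0.27. With 3 libraries per group these correlations cannot decide whether libraries are paired. With a replicate block there were 105 calls (57 higher, 48 lower). Sign changes among named miRNAs were few and small. With library size only these were miR-145 (0.14), miR-140 (0.049), miR-27a-3p (0.14) and miR-423-3p (0.11). With upper-quartile factors they were miR-29a (-0.096), miR-99b (-0.011), miR-101 (-0.080) and miR-455-5p (-0.24). MiR-455-5p was also at -0.0011 with TMM over 12 libraries and in the fits of 9 and of 12 libraries, at -0.0069 with DESeq2 and at -0.038 with collapsed names. With each library left out, miR-145 ran from -0.21 to 0.084, miR-455-5p from -0.076 to 0.052 and miR-27a-3p from -0.11 to 0.050. The causes were not tested. Depth limits what can be said of a miRNA with 0 reads, which may still be present at up to 0.732 to 1.07 RPM (3 reads, counting error only).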
